A study of Mus musculus with 24 samples.

Results

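The CC chemokine ligands described here are 10 genes, Ccl2, Ccl7, Ccl12, Ccl6, Ccl9, Ccl3, Ccl4, Ccl5, Ccl22 and Ccl24, found among 54532 genes of the deposited table by their Ensembl identifiers and GENCODE M21 symbols. The study measured messenger RNA in bone marrow derived macrophages, cells grown for 7 days from marrow of C57BL/6 mice in L929 conditioned medium, which supplies macrophage growth factor. All groups share that strain and culture. The groups are wild type (WT) cells left untreated (libraries 1 to 4), given ACM (19 to 22) or given S1P (25 to 28), and Trem2(-/-) cells (KO) left untreated (79 to 82), given ACM (85 to 88) or given S1P (91 to 94), with 4 libraries in each. S1P, sphingosine-1-phosphate, is a lipid mediator and was given at 500 nM for 24 hours. ACM is serum-free medium collected from AML12 cells, a mouse hepatocyte line, that had been driven into apoptosis by palmitate at 800 µM, and it was also given for 24 hours. No source used here describes a vehicle for S1P, a group with medium of healthy AML12 cells or the Trem2 allele. No label names an animal, culture or batch, so the p-values measure only the spread between libraries, which may be technical. Each group holds its own block of library numbers, and the labels do not say what the numbers stand for. Whatever they stand for cannot be told apart from group.

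CC chemokines are small secreted proteins that guide leukocytes through G protein-coupled receptors, and they take their name from a pair of adjacent cysteines near the start of the mature protein. Macrophages are a main source of them in inflamed tissue. Ccl2, Ccl7 and Ccl12 act on Ccr2 and draw monocytes, Ccl3, Ccl4 and Ccl5 draw T cells and macrophages, and Ccl3, Ccl5, Ccl6 and Ccl9 can act on Ccr1. Ccl22 acts on Ccr4 of regulatory and type 2 helper T cells, and Ccl24, an eotaxin, acts on Ccr3 of eosinophils.

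The coding sequences around the adjacent cysteine codons show what the 10 genes have in common and how far apart they are between those codons. Each run holds 45 bases, 5′ to 3′, from the longest coding sequence of the gene in GENCODE M21 (GRCm38), with the pair of cysteine codons in capitals.
Ccl2: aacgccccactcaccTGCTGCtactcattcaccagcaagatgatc
Ccl7: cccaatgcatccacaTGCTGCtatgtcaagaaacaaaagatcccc
Ccl12: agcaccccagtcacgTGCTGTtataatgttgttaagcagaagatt
Ccl6: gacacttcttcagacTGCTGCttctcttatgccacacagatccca
Ccl9: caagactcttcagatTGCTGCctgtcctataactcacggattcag
Ccl3: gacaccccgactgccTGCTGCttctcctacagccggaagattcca
Ccl4: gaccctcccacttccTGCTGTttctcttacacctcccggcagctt
Ccl5: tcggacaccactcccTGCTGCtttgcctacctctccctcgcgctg
Ccl22: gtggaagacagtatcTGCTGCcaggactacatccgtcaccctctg
Ccl24: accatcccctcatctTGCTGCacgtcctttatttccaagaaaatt
All 10 runs hold the adjacent codons, as TGCTGC in 8 genes and TGCTGT in Ccl4 and Ccl12. In the remaining bases the genes differ. Over whole coding sequences the most alike pair was Ccl3 and Ccl4, with 68.4% of aligned positions identical, followed by Ccl6 and Ccl9 (64.6%) and by Ccl7 and Ccl12 (63.5%). The longest run of bases shared exactly between transcripts was 25, for Ccl6 and Ccl9, and 23 for Ccl2 and Ccl7. No source used here says how the authors treated reads that fit several genes, so levels within such pairs carry that uncertainty.

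Of the 10 genes, 8 lie on chromosome 11 in a pair of clusters (GRCm38, GENCODE M21, all protein coding). The first cluster holds Ccl2 (82035571 to 82037453), Ccl7 (82045712 to 82047525) and Ccl12 (82101845 to 82103400) on the plus strand. The second cluster starts 1429 kb from Ccl12 with Ccl5 (83525778 to 83530518) and goes on with Ccl9 (83572919 to 83578636), Ccl6 (83587882 to 83593087) and Ccl3 (83647844 to 83649355) on the minus strand and Ccl4 (83662584 to 83664683) on the plus strand. Ccl22 is on chromosome 8 (94745590 to 94751699, plus strand) and Ccl24 on chromosome 5 (135569937 to 135573049, minus strand). Gm17268 overlaps Ccl2 and E230016K23Rik overlaps Ccl6 on the opposite strand, with at most 1.96 and 0.84 FPKM in any library.

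Levels are in FPKM, fragments scaled for exon length and library size, which allows levels of different genes to be set side by side. In WT untreated cells Ccl6 was highest at 1511 ± 54.1 FPKM (SD, n = 4), followed by Ccl2 at 1004 ± 56.5, Ccl7 at 767 ± 42.7 and Ccl9 at 474 ± 12.1. Ccl3 (242 ± 9.24), Ccl12 (233 ± 29.2) and Ccl4 (220 ± 7.48) followed, their libraries covering 229 to 250, 207 to 271 and 211 to 229. Library by library, Ccl3 exceeded Ccl4, at 229, 242, 250 and 246 against 211, 218, 229 and 223 FPKM. Ccl12 lay above Ccl3 in WT untreated 1 and 3 and below it in WT untreated 2 and 4. These differences between genes were not tested. Ccl5 was far lower, at 4.68 ± 0.577. Ccl22 stood at 0.259 ± 0.117 and Ccl24 at 0.104 ± 0.0446. The order of the 4 highest genes was the same in each of the 6 groups. Ccl24 was at 0 to 9 recovered reads per library, reached 1 FPKM in none, and was not tested. 

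**Figure D1:**
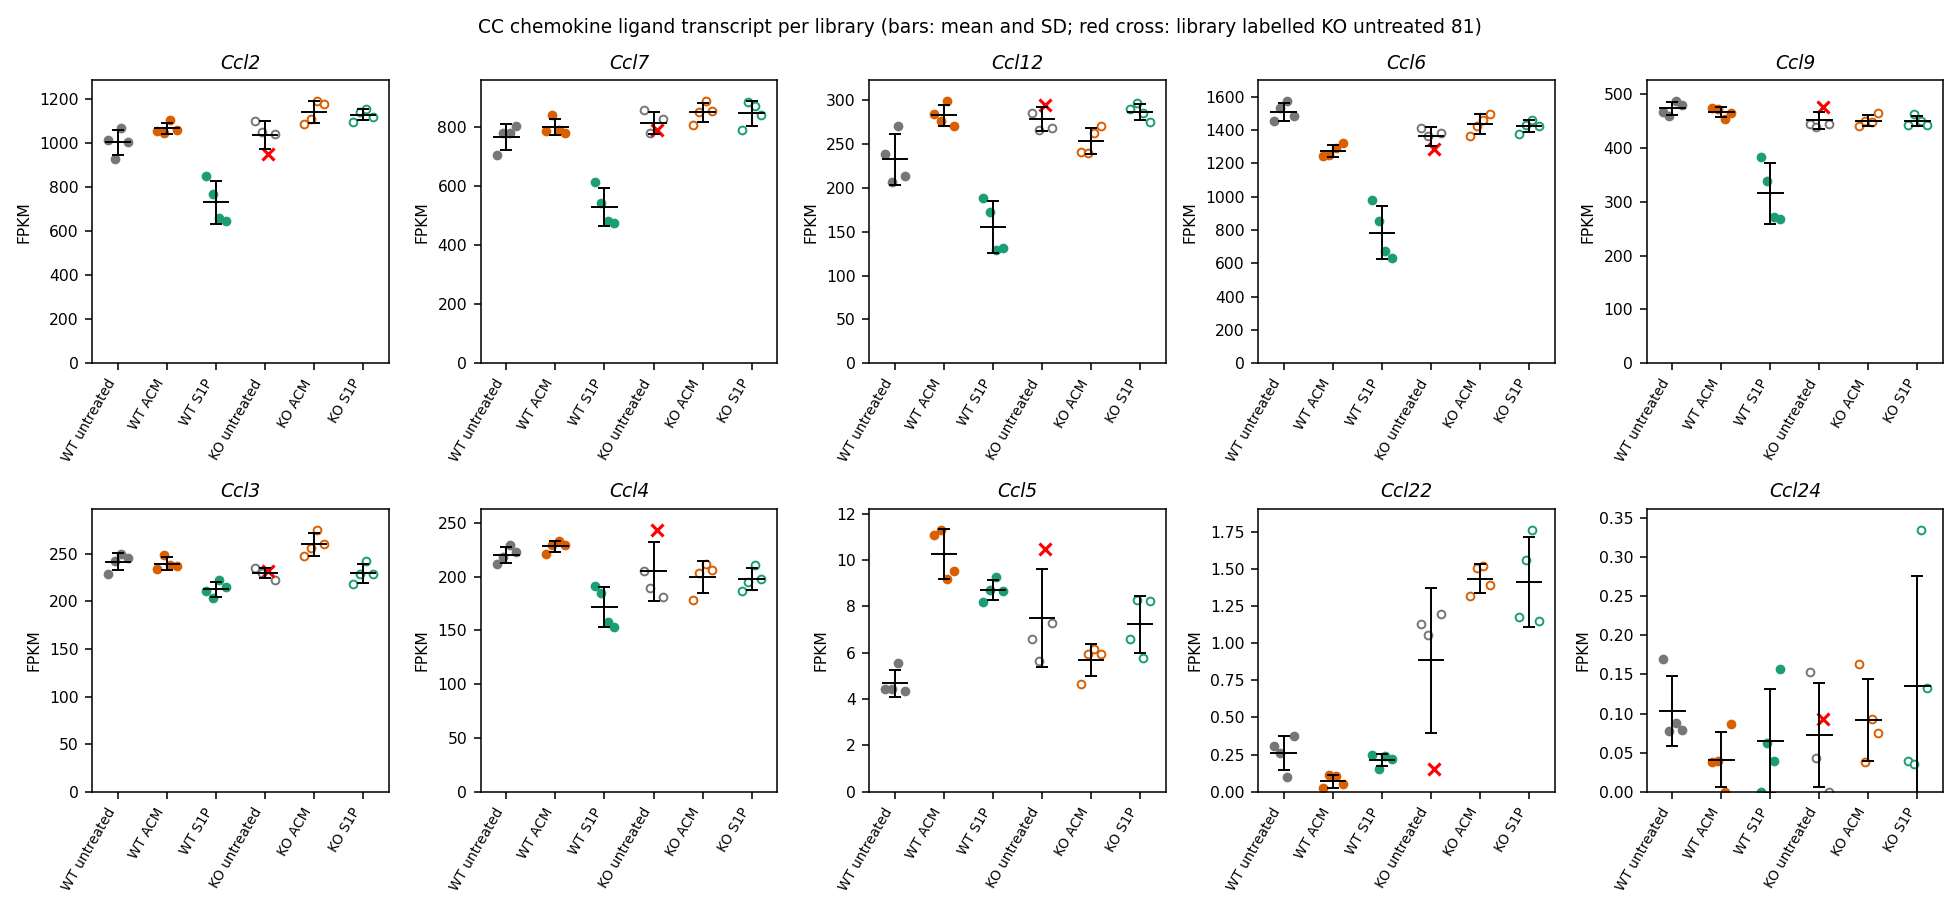
FPKM (vertical axes, linear, from 0) of the 10 CC chemokine ligands in each of 24 libraries by group (horizontal axes). Points are libraries, bars the mean and SD, and the red cross is the library labelled KO untreated 81. Ccl2, Ccl7, Ccl12, Ccl6 and Ccl9 are lowest in WT S1P cells and Ccl5 is lowest in WT untreated cells.

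Read totals recovered from the FPKM values ran from about 16600000 to 25200000 per library. Markers of bone marrow derived macrophages (Adgre1, Csf1r, Cd68, Itgam, Mertk, Fcgr1) were all present, with a summed level of 1450 to 1749 FPKM. Lists for fibroblasts, hepatocytes and T, NK, B and mast cells summed to at most 0.122, 0.0498 and 0.332 FPKM. The label check on the targeted gene found Trem2 at 35.7 to 40.7 FPKM in 11 of 12 KO libraries, but at 79.6 in the library labelled KO untreated 81, inside the WT untreated range of 74.5 to 82.7. That library lay outside the range of the other KO untreated libraries in 7 of the 10 chemokine genes, below it in Ccl2, Ccl6 and Ccl22 and above it in Ccl4, Ccl5, Ccl9 and Ccl12. A library often lies outside the range of so few others by chance, and the share over all genes was not counted. Owing to the Trem2 level, calls that rest on KO untreated cells are given with and without library 81, while the plots of differences include it.

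The first comparison asked how ACM changed the chemokine genes of WT cells. Ccl5 rose, from 4.42, 4.43, 5.55 and 4.34 FPKM in the WT untreated libraries to 11.1, 11.3, 9.17 and 9.51 with ACM. Every ACM library exceeded every untreated one. In bulk RNA, fewer cells of a type and less RNA per cell cannot be told apart. Differences are given in units of log2(FPKM + 1) ± SE from limma, a linear model fitted over 11377 genes, with p-values adjusted by Benjamini and Hochberg over those genes and called under 0.05. The Ccl5 difference was 0.99 ± 0.13 with limma adjusted p = 1.76e-05, and the exact 2-sided permutation p of 0.0286 is the smallest that 4 against 4 libraries can give. Ccl12, a mouse ligand of Ccr2, rose by 0.29 ± 0.10 (limma adjusted p = 0.0346), from 239, 207, 271 and 213 FPKM to 284, 277, 299 and 271. Here the groups touched, since the lowest ACM library did not exceed the highest untreated one (exact permutation p = 0.0571). Ccl6 fell by 0.24 ± 0.09 (limma adjusted p = 0.0473), from 1452, 1535, 1574 and 1482 FPKM to 1242, 1254, 1292 and 1320. The groups were apart, but the call was lost in 20 of 32 other settings, at adjusted p of 0.0524 to 0.158: with no filter, without any 1 library of WT untreated or WT ACM, and without any 1 KO library other than KO untreated 81. The Ccl12 call was lost in 8 settings, with no filter, under quantile normalization, with values rescaled to TPM (0.17, adjusted p = 0.256), and without WT untreated 2 or 4 or WT ACM 19, 20 or 21 (0.23 to 0.30, adjusted p from 0.0548 to 0.11).

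The other 6 tested genes were not called with ACM in WT cells. Ccl2, the principal monocyte attractant, differed by 0.09 ± 0.07 (limma adjusted p = 0.358), and its neighbour Ccl7 by 0.06 ± 0.06. Ccl9 stood at -0.02 ± 0.07, Ccl3 at -0.01 ± 0.04 and Ccl4 at 0.05 ± 0.08. Ccl22 had 1 to 5 reads per library under ACM and 4 to 17 without, a difference of -0.23 ± 0.15 (limma adjusted p = 0.288). In all, 2 of 9 tested ligands were higher and 1 was lower, against 12.2% and 9.85% of all genes tested (22.1% in either direction). Rescaled to TPM, 484 of all genes were higher and 2662 lower, in place of 1390 and 1121. Over the 8 ligands that reached 1 FPKM in every library, the median difference was 0.06, against -0.0013 over all genes.

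S1P moved more of the ligands in WT cells. It lowered 7 of them, all 3 genes of the Ccl2 cluster and 4 of the 5 genes of the Ccl5 to Ccl4 cluster, and raised Ccl5. The counts were 7 of 9 tested ligands lower against 27.2% of all genes and 1 higher against 25.2% (52.4% in either direction), in a comparison where most tested genes were called. The median over the 8 ligands at 1 FPKM in every library was -0.50, against 0.0038 over all genes.

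Ccl6 fell most, by 0.97 ± 0.09 (limma adjusted p = 6.52e-09), to 981, 852, 673 and 635 FPKM in WT S1P 25, 26, 27 and 28. Each of these was below every WT untreated library. Its relative Ccl9 fell by 0.60 ± 0.07 (limma adjusted p = 4.53e-07), from 468, 460, 487 and 480 FPKM to 384, 339, 272 and 268. Both encode ligands of Ccr1 and lie next to each other, with starts 48.1 and 62.6 kb from that of Ccl5.

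Among the ligands of Ccr2, Ccl2 fell by 0.46 ± 0.07 (limma adjusted p = 3.9e-06), from 1013, 931, 1068 and 1004 FPKM to 852, 769, 660 and 647. Ccl7 fell by 0.54 ± 0.06 (limma adjusted p = 2.42e-07), from 706, 779, 780.1 and 804 FPKM to 614, 545, 482 and 475. Ccl12 fell by 0.59 ± 0.10 (limma adjusted p = 1.92e-05), to 189, 173, 129 and 132 FPKM. For all 3 genes the S1P libraries lay below all untreated libraries. Ccl3, Ccl4 and Ccl5 were split. Ccl4 fell by 0.36 ± 0.08 (limma adjusted p = 0.000448), to 191, 184, 158 and 153 FPKM. Ccl3 fell by 0.18 ± 0.04 (limma adjusted p = 0.000369), from 229, 242, 250 and 246 FPKM to 211, 203, 222 and 215. Ccl5, the third of them, rose by 0.78 ± 0.13 (limma adjusted p = 2.94e-05), to 8.18, 8.70, 9.25 and 8.67 FPKM. For each of these 8 genes the groups did not overlap, as for 45.2% of all genes, which gives the smallest exact permutation p, 0.0286. Ccl22 was not called (-0.05 ± 0.15).

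**Figure D2:**
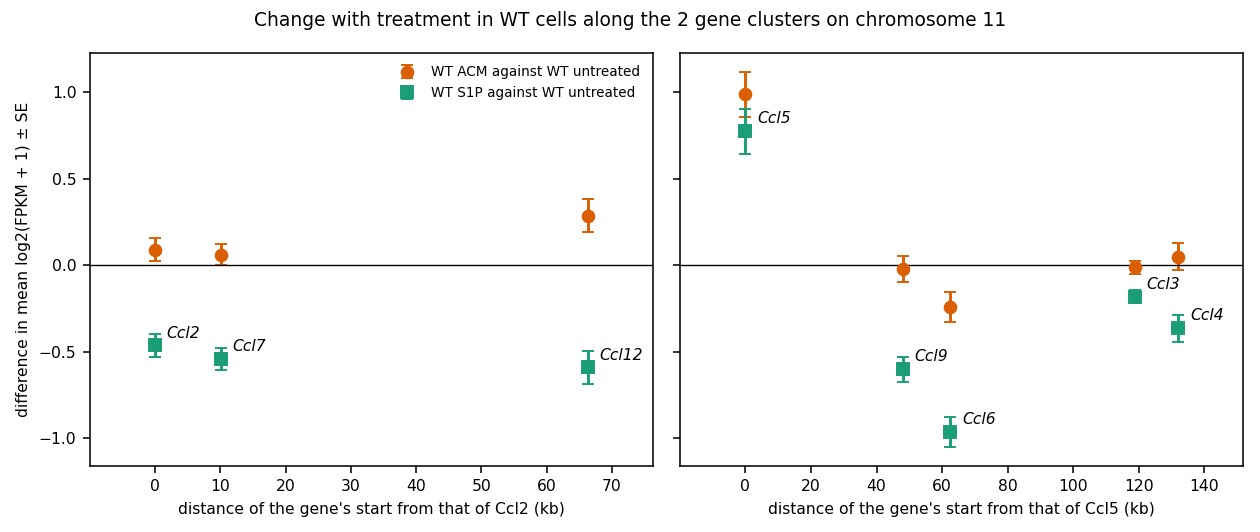
Difference from WT untreated cells in mean log2(FPKM + 1) ± SE (vertical axis) for WT ACM (circles) and WT S1P (squares) against the distance of each gene's start from the first gene of its cluster, in kb (horizontal axes). The 3 genes of the left cluster lie between -0.46 and -0.59 with S1P, while in the right cluster Ccl5 at 0.78 stands 48.1 kb from Ccl9 at -0.60.

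The S1P libraries were uneven in the same order for many ligands. In Ccl2, Ccl4, Ccl6, Ccl7 and Ccl9 the values ran from WT S1P 25, the highest, through 26 and 27 to 28. Ccl6 was at 0.65 of the WT untreated mean in WT S1P 25 and at 0.42 in WT S1P 28. Ccl3 and Ccl5 were both highest in WT S1P 27. Summed over the 10 ligands the level was 3431, 3075, 2606 and 2533 FPKM in these libraries, against 4324 to 4665 in WT untreated cells and 4313 to 4422 with ACM. The list of 5 monocyte markers, of which Ccr2 is also a receptor described below, summed to 10.8 to 20.5 FPKM in WT S1P libraries. In WT untreated libraries it summed to 26.9 to 29.5 FPKM. With S1P in WT cells 27.2% of all genes were called lower and 25.2% higher. Of 4 tested monocyte markers 2 were called lower and 0 higher, and of the 6 macrophage markers 4 were called lower and 1 higher. The part of either in the ligand differences was not tested. All 8 calls held in each of 32 other settings, including those that left out 1 WT S1P library.

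The makeup of the ligand pool can be given as shares. Ccl6 made up 33.9 ± 0.795% of the summed FPKM of the 10 ligands of WT untreated libraries, 29.2 ± 0.701% with ACM and 26.8 ± 1.65% with S1P (SD, n = 4). Ccl2 made up 22.5 ± 0.926%, 24.4 ± 0.451% and 25.2 ± 0.308% in the same order, and Ccl3 5.43 ± 0.119%, 5.48 ± 0.136% and 7.45 ± 1.24%. These shares are bound to each other, since they sum to a whole, and were not tested.

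ACM and S1P were also set against each other in WT cells. Of 9 tested ligands 7 were higher with ACM, against 23% of all genes, and 0 were lower, against 18.5%, with a median of 0.57 over the 8 ligands at 1 FPKM in every library and -0.0010 over all genes (41.5% were called in either direction). With TPM, 1598 of all genes were higher and 2656 lower, in place of 2617 and 2109. The difference was 0.88 ± 0.10 in Ccl12, 0.72 ± 0.09 in Ccl6, 0.60 ± 0.06 in Ccl7, 0.58 ± 0.07 in Ccl9, 0.55 ± 0.07 in Ccl2, 0.41 ± 0.08 in Ccl4 and 0.17 ± 0.04 in Ccl3 (limma adjusted p from 3.36e-07 to 0.00116). With TPM scaling the Ccl3 call was lost (0.09, adjusted p = 0.308). Ccl5 differed by 0.21 ± 0.13 (95% interval -0.06 to 0.48, limma adjusted p = 0.205), and Ccl22 by -0.18 ± 0.15. The 3 WT comparisons share libraries and are not independent of each other.

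In Trem2(-/-) cells no ligand was called with either agent. Limma called 0 of 9 with ACM, against 0.00879% of all genes, 0 of 9 with S1P, against 0.00879%, and 0 of 9 for ACM against S1P, against 0.0352%. At an unadjusted p under 0.05, limma had 4 ligands with ACM (Ccl2, Ccl3, Ccl5 and Ccl22), against 9.17% of all genes, 1 with S1P (Ccl22), against 10.3%, and 2 between the agents (Ccl3 and Ccl5), against 6.81%. With KO untreated 81 left out these became 1 with ACM (Ccl3), against 7.79%, 0 with S1P, against 9.01%, and 2 between the agents (Ccl3 and Ccl5), against 8.09%. The calls by adjusted p stayed at 0 without that library, against 0.044%, 0.185% and 0.229% of all genes.

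The values in KO cells were close together. Ccl6 was at 1414, 1367 and 1384 FPKM in KO untreated 79, 80 and 82 (1285 in the library labelled 81), at 1364, 1422, 1462 and 1498 with ACM and at 1374, 1431, 1463 and 1423 with S1P. The 95% interval of its S1P difference was -0.12 to 0.24 (-0.16 to 0.23 without 81). Ccl2 was at 1104, 1053 and 1045 FPKM (953 in 81), then 1089, 1112, 1192 and 1181 with ACM and 1099, 1142, 1158 and 1121 with S1P, an S1P interval of -0.01 to 0.26 (-0.06 to 0.22 without 81). These intervals do not reach the falls seen in WT cells. Over the 11 KO libraries other than 81, Ccl7 ran from 782 to 889 FPKM, Ccl12 from 240.4 to 286 untreated or with ACM and from 276 to 297 with S1P, Ccl9 from 439 to 464 and Ccl4 from 178 to 212. The library labelled 81 had 789.9 FPKM of Ccl7, 294 of Ccl12, 476 of Ccl9 and 244 of Ccl4. Ccl3 came nearest to a call, in ACM against S1P cells. Its KO S1P libraries were at 218, 229, 242 and 228 FPKM, all below those with ACM, a difference of 0.18 ± 0.04 with limma adjusted p = 0.0999 (0.0602 without 81), and it was called in 1 of 32 other settings, array weights. Its 4 KO ACM libraries (247, 256.5, 275 and 260 FPKM) were all above the 4 KO untreated ones (235, 230, 231 and 222), a difference of 0.18 ± 0.04 with limma adjusted p = 0.16 (0.162 without 81) and exact permutation p = 0.0286. The share of all genes whose groups are apart in this comparison is not given here.

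**Figure D3:**
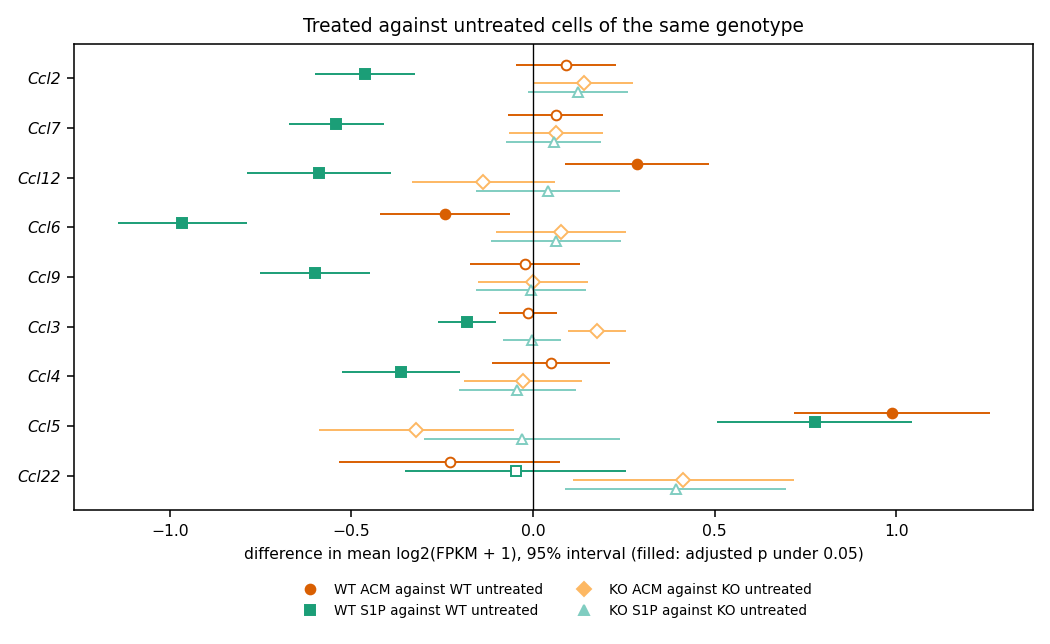
Difference from untreated cells of the same genotype in mean log2(FPKM + 1) with its 95% interval (horizontal axis) for the 9 tested ligands (vertical axis). Filled symbols have an adjusted p under 0.05: 8 ligands with S1P and 3 with ACM in WT cells, and 0 in KO cells.

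Whether the agents acted differently in the genotypes was tested by the interaction, the difference in KO cells minus that in WT cells. Comparisons of the genotypes are counted over the 8 ligands at 1 FPKM in every library, since Ccl22 passed the filter through KO libraries. For S1P all 8 were called, 7 higher, against 22.5% of all genes, and 1 lower, against 19.4% (41.9% in either direction). Their median was 0.59, against -0.0050 over all genes, and without KO untreated 81 it was 0.56, with the same counts. It rests on the same WT S1P and WT untreated libraries as the falls above. Ccl6 had 1.03 ± 0.12 (limma adjusted p = 9.61e-07), Ccl12 0.63 ± 0.13, Ccl7 0.60 ± 0.09, Ccl9 0.60 ± 0.10, Ccl2 0.59 ± 0.09, Ccl4 0.32 ± 0.11 and Ccl3 0.18 ± 0.05. Without KO untreated 81 these were 1.00 ± 0.13, 0.66 ± 0.14, 0.58 ± 0.09, 0.62 ± 0.11, 0.55 ± 0.09, 0.41 ± 0.09 and 0.18 ± 0.06 in the same order, and all 7 were called (limma adjusted p from 2.83e-06 to 0.0128). For Ccl5 the sign was the opposite, -0.80 ± 0.18 (limma adjusted p = 0.00118; -0.65 ± 0.15 with KO untreated 81 left out, against 41.6% of all genes). The Ccl4 call was lost in 7 settings: with no filter, with TPM scaling, and without WT S1P 27 or 28, KO untreated 80 or 82 or KO S1P 93 (0.27 to 0.29, adjusted p from 0.0506 to 0.0588). The Ccl3 call was lost with quantile normalization (0.09, adjusted p = 0.229) and TPM scaling (0.18, adjusted p = 0.17).

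For ACM the interaction called 3 of these 8 ligands, 1 higher against 7.41% of all genes and 2 lower against 9.64% (17.1% in either direction; 843 and 1097 genes, or 1365 and 445 with TPM), with a median of 0.01 over the 8 ligands and 0.0078 over all genes. Ccl6 was not called here, but was called in 5 of 32 other settings. These were TPM scaling, only the groups compared, array weights, and leaving out WT S1P 25 or 28. Without KO untreated 81, 1 of the 8 ligands was higher and 1 lower. Ccl5 led with -1.31 ± 0.18 (limma adjusted p = 7.24e-05), or -1.15 ± 0.15 with KO untreated 81 left out (14.9% of all genes called). It was at 6.58, 5.62 and 7.29 FPKM in the other KO untreated libraries and at 4.67, 5.96, 6.18 and 5.93 in KO ACM cells, in contrast to the rise in WT cells. Ccl3 had 0.19 ± 0.05 (limma adjusted p = 0.0201), or 0.19 ± 0.06 (adjusted p = 0.0261) without that library. Ccl12 had -0.42 ± 0.13 (limma adjusted p = 0.034), and this call was lost in 10 settings: with no filter, with TPM scaling (-0.31, adjusted p = 0.167), without that library (-0.40, adjusted p = 0.0637), and without WT untreated 2 or 4, WT ACM 19 or 21, KO untreated 79 or KO ACM 85 or 86 (adjusted p from 0.0534 to 0.0718). Ccl22, outside the count, had 0.64 ± 0.21 (limma adjusted p = 0.0365; 0.42 ± 0.13 without the library), and its call was lost with no filter, with only the compared groups, and without WT untreated 1, 2 or 4, WT ACM 19 or 22 or KO ACM 86, 87 or 88 (0.60 to 0.65, adjusted p from 0.0534 to 0.0704).

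The genotypes were next compared within each treatment. In untreated cells 1 of the 8 ligands was called, against 2.47% of all genes (143 or 1.26% higher and 138 or 1.21% lower; with TPM, 40 higher and 141 lower). Ccl5 was higher in KO by 0.55 ± 0.13 (limma adjusted p = 0.0255), with every KO untreated library, 5.62 to 10.5 FPKM, above the WT range of 4.34 to 5.55. With KO untreated 81 left out the difference was 0.40 ± 0.11 (adjusted p = 0.0266), and 1 of the 8 was again called, against 8.15% of all genes. The Ccl5 call was lost in 7 settings: with no filter, with TPM scaling, with only these groups in the fit (adjusted p = 0.155), and without WT untreated 1, 2 or 4 or KO untreated 82 (0.53 to 0.56, adjusted p from 0.0625 to 0.0767). No other of the 8 passed, and Ccl12 was at 0.27 ± 0.10 (limma adjusted p = 0.147; 0.24 ± 0.10 and adjusted p = 0.177 without KO untreated 81).

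Under ACM, KO cells had less Ccl5 than WT cells, -0.75 ± 0.13 (limma adjusted p = 0.000143), and more Ccl3, 0.12 ± 0.04 (limma adjusted p = 0.0276). Of the 8 ligands 1 was higher, against 12.5% of all genes, and 1 lower, against 15.5% (28% in either direction; 1421 and 1765 genes, or 1665 and 1000 with TPM). Their median was 0.02, and 0.0059 over all genes. The Ccl3 libraries of the genotypes overlapped, and the call was lost in 7 settings: with no filter, with TPM scaling, and without WT ACM 19, 21 or 22 or KO ACM 87 or 88 (0.09 to 0.11, adjusted p from 0.0558 to 0.113). Ccl4 was at 178, 204, 212 and 206 FPKM in KO ACM and 221, 229, 233 and 229 in WT ACM libraries, which do not overlap. Its difference of -0.19 ± 0.08 was not called (limma adjusted p = 0.0725), but was called with KO untreated 81 left out, which enters only the shared error here (adjusted p = 0.0278, against 29.7% of all genes). Ccl6 was higher in every KO ACM than in every WT ACM library, but its 0.17 ± 0.09 was not called (limma adjusted p = 0.153). It was called in 3 of 32 other settings: with only the groups compared, with array weights and without WT S1P 25.

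Under S1P, KO cells exceeded WT cells in 7 of the 8 ligands, against 26.9% of all genes, and 0 were lower, against 25.4% (52.4% in either direction). Their median was 0.58, against 0.00031 over all genes. This contrast rests on the same 4 WT S1P libraries as the falls given above. The differences were 0.90 ± 0.10 in Ccl12, 0.88 ± 0.09 in Ccl6, 0.69 ± 0.06 in Ccl7, 0.63 ± 0.07 in Ccl2 and 0.53 ± 0.07 in Ccl9, with limma adjusted p from 9.58e-09 to 2.84e-06. In the same contrast 3 of 4 tested monocyte markers were called higher and 0 lower. Of 6 macrophage markers 4 were higher and 1 lower, and 3 of 3 tested granulocyte markers were higher. Only these 3 of 9 listed granulocyte markers passed the filter on low values. Elane among them was at most 0.772 FPKM in any WT library and passed only through KO libraries, so its call is a description. The monocyte list summed to 21.5 to 23.8 FPKM in KO S1P and 10.8 to 20.5 in WT S1P libraries, the macrophage list to 1511 to 1593 and 1499 to 1599, and the granulocyte list to 18.8 to 21.5 and 7.47 to 9.97. The part of these cells in the ligand differences was not tested. In the 5 ligands above the KO S1P libraries were all above the WT S1P ones, and groups were apart in 46.6% of all genes. Ccl4 (0.21 ± 0.08) and Ccl3 (0.11 ± 0.04) had overlapping libraries, and their calls (limma adjusted p = 0.0303 and 0.0234) were lost in 7 and 6 settings. For Ccl4 these were no filter, TPM and median scaling, and leaving out WT S1P 27 or 28 or KO S1P 93 or 94 (0.15 to 0.21, adjusted p from 0.0537 to 0.123). Over all 7 settings its adjusted p went up to 0.19. For Ccl3 they were TPM, quantile and median scaling (0.04 to 0.07), only the compared groups, and leaving out WT S1P 26 or KO S1P 93 (0.08, adjusted p = 0.0886 and 0.101). Ccl5 differed by -0.25 ± 0.13 (limma adjusted p = 0.112), which passed the threshold once KO untreated 81 was left out of the fit (adjusted p = 0.0433, against 54% of all genes).

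**Figure D4:**
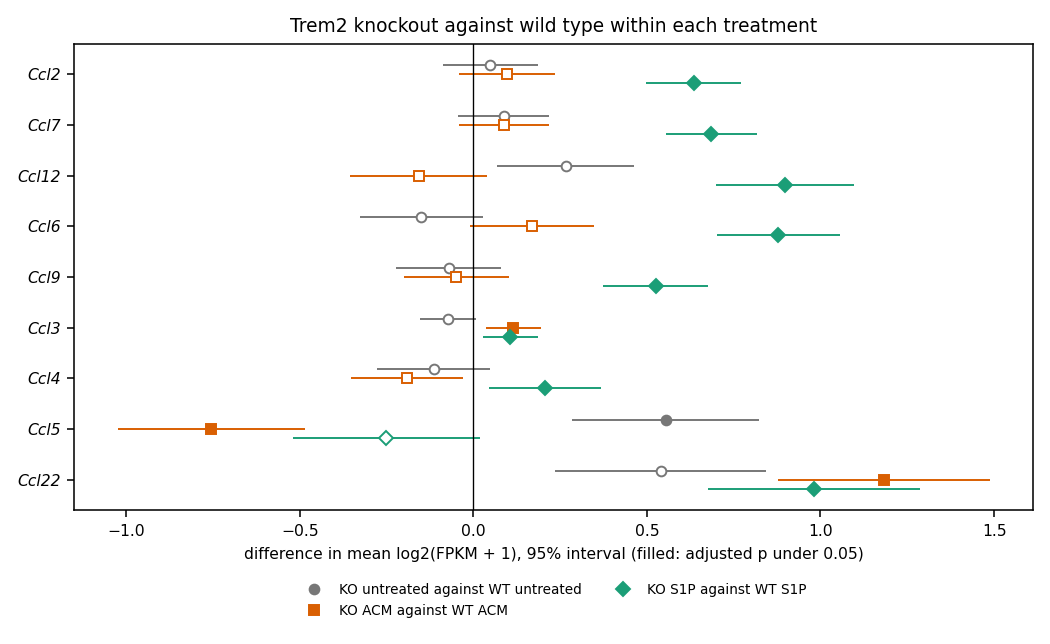
Difference of Trem2 knockout from WT cells in mean log2(FPKM + 1) with its 95% interval (horizontal axis) for 9 ligands (vertical axis), untreated (circles), with ACM (squares) and with S1P (diamonds). Filled symbols have an adjusted p under 0.05. With S1P Ccl2, Ccl7, Ccl12, Ccl6 and Ccl9 lie at 0.53 or above, and Ccl5 under ACM lies at -0.75.

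Ccl22, the ligand of Ccr4, was at 0.0213 to 0.371 FPKM in the 12 WT libraries and at 1.05 to 1.76 in 11 KO libraries, while the library labelled KO untreated 81 had 0.156. These are 1 to 17 reads per WT library and 44 to 85 per KO library other than 81. The gene passed the filter on low values only through those 11 KO libraries, so it had to differ between the genotypes, and its calls are a description. The differences were 1.18 ± 0.15 under ACM and 0.98 ± 0.15 under S1P, and 0.76 ± 0.10 in untreated cells without 81 (0.54 ± 0.15 with it). At these low levels the size depends on the pseudocount: with 0.1 in place of 1 the differences were 3.19 under ACM, 2.25 under S1P and 1.27 in untreated cells with 81. The list of 6 dendritic cell markers, another cell type that makes Ccl22, summed to 0.0896 to 0.393 FPKM in WT libraries and 0.782 to 1.42 in KO libraries other than 81 (0.178 there), with 0 of 6 markers passing the filter on low values. The 9 granulocyte markers summed to 5.77 to 9.97 FPKM in WT libraries and to 14.3 to 21.5 in KO libraries other than 81 (7.2 there). The part of such cells in the Ccl22 levels was not tested.

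Of the 11 other CC ligands listed, only Ccl8 passed the filter on low values, and it was called in 0 of 11 comparisons. Ccl19, Ccl20, Ccl21a and Ccl26 were at 0 in all 24 libraries.

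The receptors that these ligands act on were examined in the same cells. Of 14 CC receptors and atypical receptors described here 5 were tested. In WT cells S1P lowered 2, Ccr2 by 0.93 ± 0.13 (limma adjusted p = 2.29e-06) and Ccr1 by 0.37 ± 0.07, and raised 1, Ccrl2, by 0.80 ± 0.13 (adjusted p = 1.9e-05). Ccr2, which monocytes use to leave the marrow and enter tissue, was at 4.49, 4.08, 4.31 and 4.56 FPKM in WT untreated and 2.70, 2.10, 1.16 and 1.55 in WT S1P libraries. Ccrl2, an atypical receptor that presents chemerin and does not signal like the others, was at 2.56, 2.85, 2.46 and 2.76 FPKM and then at 4.62, 4.94, 6.60 and 5.47. In both receptors the groups did not overlap. These 3 of 5 stand against 52.4% of all genes called with S1P. With ACM 2 of 5 were called, against 22.1% of all genes, both higher. Ccrl2 differed by 0.68 ± 0.13 (limma adjusted p = 0.000728). Ccr3 differed by 0.35 ± 0.13 (limma adjusted p = 0.0494), at an FPKM of 1.11 ± 0.0679 against 0.657 ± 0.13 (SD, n = 4). Ccr3 reached 1 FPKM only in the WT ACM libraries and in KO untreated 81, and passed the filter on low values only through them. Its calls that involve WT ACM cells, and its place in this count, are therefore a description. With KO untreated 81 left out, Ccr1 was also called, at -0.15 ± 0.05.

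Between genotypes, KO cells had more Ccr1 than WT cells under ACM (0.43 ± 0.07) and S1P (0.65 ± 0.07, limma adjusted p = 1.77e-07), and less Ccrl2 (-0.57 ± 0.13 and -0.74 ± 0.13). In untreated cells the Ccr1 difference was 0.14 ± 0.07 (limma adjusted p = 0.358), or 0.25 ± 0.05 (adjusted p = 0.0036) without KO untreated 81. Ccr3, an eosinophil receptor, was lower in KO cells under ACM, with a difference of -0.71 ± 0.13 (limma adjusted p = 0.000212), at 0.292 ± 0.0594 against 1.11 ± 0.0679 FPKM (SD, n = 4). It had 12 to 22 reads per KO ACM library. Because Ccr3 passed the filter on low values only through WT ACM libraries and KO untreated 81, this call is a description. Under S1P it was at -0.19 ± 0.13, called only without that library (limma adjusted p = 0.215 and 0.0459). Ccr2 was higher in KO cells under S1P, by 0.37 ± 0.13 (limma adjusted p = 0.0185), with an S1P interaction of 0.71 ± 0.18 (0.78 ± 0.18 without that library). The library labelled KO untreated 81 had 5.73 FPKM of Ccrl2, above the other KO untreated libraries (2.80 to 3.09). The interaction for Ccrl2 was -0.87 ± 0.18 for ACM and -1.04 ± 0.18 for S1P, the same sign as for Ccl5, or -0.68 ± 0.12 and -0.85 ± 0.12 when that library was dropped.

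**Figure D5:**
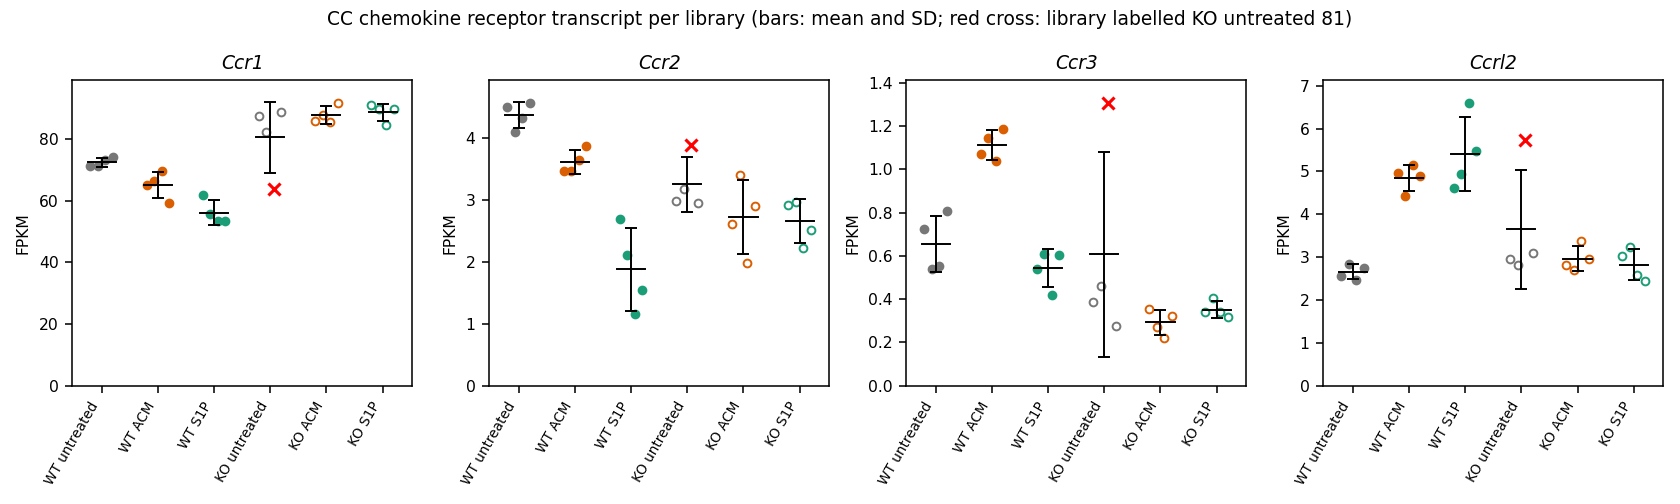
FPKM (vertical axes, linear, from 0) of 4 CC chemokine receptors in each library by group (horizontal axes). Points are libraries, bars the mean and SD, and the red cross is the library labelled KO untreated 81. Ccr2 is lowest in WT S1P cells, and Ccrl2 is higher in WT ACM and WT S1P than in WT untreated cells.

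Lists of the pathways that act on chemokine genes were counted for WT cells. Of all genes, 12.2% were called higher and 9.85% lower with ACM, and 25.2% higher and 27.2% lower with S1P. Of 17 tested NF-kB pathway genes 5 were higher and 0 lower with ACM, and 9 higher and 3 lower with S1P, with medians of 0.09 and 0.12. Nfkb2, a precursor subunit of NF-kB, rose by 0.19 ± 0.03 and 0.37 ± 0.03. Of 13 interferon regulation genes 6 were higher and 0 lower with ACM, and 2 higher and 4 lower with S1P, with medians of 0.11 and -0.01. Irf5, a regulator of inflammatory genes, rose by 0.49 ± 0.06 and 0.59 ± 0.06. Of 12 genes of the IL-4 and STAT6 pathway 4 were higher and 1 lower with ACM, and 2 higher and 3 lower with S1P. The macrophage mannose receptor Mrc1 fell in both (-0.65 ± 0.13 and -1.71 ± 0.13). In the other direction, Il2rg rose with ACM by 0.40 ± 0.07 and Pparg with S1P by 0.72 ± 0.09. Among 4 tested genes of chemokine processing, ACM raised 1 and lowered 0, and S1P raised 2 and lowered 1. With ACM Mmp9, a gelatinase that can trim chemokines, rose by 2.13 ± 0.34 (limma adjusted p = 0.000135), from 3.71 ± 0.274 to 19.6 ± 1.59 FPKM (SD, n = 4). With S1P Mmp12, a macrophage elastase that can trim chemokines, rose by 0.70 ± 0.11, and Adam17, a sheddase, fell by 0.23 ± 0.04. In KO against WT cells, 0 NF-kB genes were higher and 6 lower under ACM, and 1 higher and 8 lower under S1P. For interferon regulation the counts were 0 and 8 under ACM and 3 and 1 under S1P, and for the IL-4 and STAT6 pathway 3 and 3, then 8 and 3. Between the genotypes 12.5% of all genes were higher and 15.5% lower under ACM, and 26.9% higher and 25.4% lower under S1P. The all-gene medians are those given above for these comparisons.

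Genes with the pattern most like each ligand were sought among 6769 protein-coding genes with a mean of at least 5 FPKM, by the root mean square difference of the 6 centred group means of log2(FPKM + 1). For Ccl2 and Ccl7 the nearest was Cfp (0.04 and 0.03), at 563 FPKM in WT untreated and 399 in WT S1P cells. For Ccl6 they were Incenp and Cdca8 (0.02 each), for Ccl9 Lix1 (0.02) and Eid1 (0.03), and for Ccl12 Ms4a6b (0.06) and Slc7a8 (0.07). Ccl3 was followed most closely by Dbr1 (0.02), Ccl4 by Ogfod3 (0.01), Ccl5 by Neurl3 (0.13) and Ccl22 by H2-Eb1 (0.07). The groups' own spread around a ligand's mean was 0.33 in Ccl5 and Ccl6 and 0.09 in Ccl3.

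RefSeq promoter windows (GRCm38.p6), from 250 bases before to 50 after a gene's start, matched 5 of the 10 ligands, Ccl3, Ccl6, Ccl9, Ccl12 and Ccl22. They were searched on both strands for NF-kB (GGG, any 2 bases, TTTCC), the interferon element ISRE (GAAA, any 2 bases, GAAA), GAS (TTCNNNGAA), a STAT6 site (TTC, any 4 bases, GAA) and AP-1 (TGANTCA). Of 32851 windows, 1.63% held the first, 3.44% the second, 8.3% the third, 6.95% the fourth and 7.81% the fifth. Ccl9 held a match of NF-kB, on the opposite strand and starting at -35, and one of AP-1 at -53, which do not overlap. The other 4 windows held none of these letters. The windows of Ccl9 (chr11:83578587-83578886, minus strand) and its neighbour Ccl6 (chr11:83593038-83593337, minus strand) are shown because both genes fell with S1P in WT cells, with the matches in capitals.
Ccl9: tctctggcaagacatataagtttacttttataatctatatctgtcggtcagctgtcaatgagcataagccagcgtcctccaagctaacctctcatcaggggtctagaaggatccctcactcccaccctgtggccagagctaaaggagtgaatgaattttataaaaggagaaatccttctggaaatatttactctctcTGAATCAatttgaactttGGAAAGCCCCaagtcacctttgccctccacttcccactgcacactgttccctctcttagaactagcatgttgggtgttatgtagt
Ccl6: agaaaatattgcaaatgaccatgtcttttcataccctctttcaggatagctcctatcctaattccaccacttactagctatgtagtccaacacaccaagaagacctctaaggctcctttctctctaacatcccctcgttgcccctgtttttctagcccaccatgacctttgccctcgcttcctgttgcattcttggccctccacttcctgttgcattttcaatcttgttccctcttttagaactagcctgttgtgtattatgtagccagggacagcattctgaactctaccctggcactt
A match is a run of letters and no evidence of binding. Any relation of the matches to the falls with S1P was not tested.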

How the data were processed

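RNA enriched on oligo(dT) beads was sequenced in 24 libraries, per the labels' protocols. The FPKM values are those the authors deposited. Builds mm10 and GRCm38 stand in the submitters' processing notes, as do the aligners STAR and HISAT2, the counters StringTie and featureCounts, and DESeq, edgeR and STAR-Fusion, with no role stated. Strand use is not stated. GENCODE M21 named 54495 of 54532 identifiers. Whole reads were recovered from FPKM and exon length in every library for 97% of genes above 0 (tolerance 0.05 reads) and served only as depth.

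Genes with FPKM of at least 1 in at least 4 libraries (11377) were fitted in R 4.3.3 by limma 3.58.1, on log2(FPKM + 1) and as 6 group means with a mean-variance trend, for 11 comparisons. Fold changes on this scale understate low genes, and the SE is shared by all groups. The fit was also run on simulated data with independent normal noise of equal spread in every group. Its outcome is not given here, and it does not cover groups of unequal spread. A count test on recovered reads was not run. Exact permutation tests were 2-sided. The share of all genes whose groups do not overlap is given only for S1P in WT cells and for the genotypes under S1P.

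The members and lists were chosen with earlier results of these data known. Named are the members, 4 receptors (1 other of that list is not reported here), up to 2 genes with the smallest adjusted p of a list, and up to 2 most alike genes per member. Alternatives were a pseudocount of 0.1, no filter, a filter at FPKM 5, TPM, quantile and median scaling, only the compared groups, array weights and leaving out each of 24 libraries.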

Additional observations from a re-analysis of the deposited data

Results flagged for a closer look

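Single libraries stood apart from the rest of their group of 4 by Dixon's criterion, which chance meets in about 1 of 20 groups, in 8 of 90 groups tested. The library labelled KO untreated 81 did so at 475.7 FPKM in Ccl9, 0.156 in Ccl22, 79.6 in Trem2 and 5.73 in Ccrl2. The others were WT untreated 3 in Ccl5 (5.55 FPKM), KO ACM 85 in Ccl5 (4.67), WT ACM 20 in Ccl7 (840.5) and WT untreated 1 in Ccl24 (0.17).

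The effect of ACM was called different between the genotypes, by the interaction in limma, in Ccl5 (-1.31), Ccl12 (-0.42), Ccl3 (0.19) and Ccl22 (0.64), against 17.1% of all genes. The Ccl12 and Ccl22 calls were each lost in 10 other settings, and Ccl22 passed the filter on low values only through KO libraries. The effect of S1P was called different in Ccl6 (1.03), Ccl12 (0.63), Ccl7 (0.60), Ccl9 (0.60), Ccl2 (0.59), Ccl4 (0.32), Ccl3 (0.18) and Ccl5 (-0.80), against 41.9% of all genes. Here the Ccl4 call was lost in 7 settings and the Ccl3 call in 2. Each value in parentheses is the difference in KO cells minus that in WT cells, in log2(FPKM + 1).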

How the results depend on the processing

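No paired analysis was possible because the library numbers of the groups are all different. Of 45 ligand results called with all libraries or without KO untreated 81, 31 kept their side of the threshold in all other settings run on them (31 for Ccl22, which the filter at FPKM 5 drops, and 32 for the others), and 0 reversed. With no filter, the ligands called of those tested, Ccl22 included, numbered 1 for ACM in WT cells, 0 for KO against WT untreated cells and 2 for the ACM interaction. For KO against WT untreated cells the count was also 0 with TPM scaling and with only the groups compared, and 2 with array weights. For KO ACM against WT ACM cells it was 6 with only the groups compared and 5 with array weights, and for KO ACM against KO S1P it was 1 with array weights. Leaving out 1 library at a time gave 1 to 3 for ACM in WT cells, 0 to 2 for KO against WT untreated cells and 2 to 5 for the ACM interaction. It gave 2 to 4 for KO ACM against WT ACM, 6 to 9 for KO S1P against WT S1P and 7 to 8 for the S1P interaction. All of these counts include Ccl22, whose calls between genotypes are a description. Apart from TPM scaling, the shares of all genes called in the same settings are not given here. The counts therefore describe the settings and are no result about the ligands. The cause of these changes was not tested. With TPM scaling the all-gene median shifted by -0.12 for ACM in WT cells and by 0.11 for the ACM interaction. Depth limits Ccl22 and Ccl24, with at most 17 and 4 reads in a WT library.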
